A study of Caenorhabditis elegans with 2 samples.

Results

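The regions described here are 1413 autosomal peaks for the chromatin protein ARID-1 that fell just short of the reproducibility threshold of the conservative peak list. They are called sites for short, and whether ARID-1 binds at each was not tested. Both replicates of the experiment were ranked against each other by the authors, and each peak carries an irreproducible discovery rate (IDR). The IDR is low for a peak that ranks high in both replicates. The sites were chosen by 1 value, a −log10 IDR of at least 1.3 and under 2, in the series-level ranked list that holds all 2330 records of the conservative list. A value of 2 is an IDR of 0.01, and 1.3 is about 0.05. They are 1413 of the 65499 autosomal records and of 77384 records in all, and stand below the 1949 autosomal peaks of the conservative list. They are called near-threshold peaks below, and those 1949 are called conservative peaks. A further 81 autosomal records reached 2 but are absent from the conservative list. Of these, 75 lay between genes, and 4 near-threshold peaks lay within 1000 bp of one.

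The data are chromatin immunoprecipitation followed by sequencing (ChIP-seq) of Caenorhabditis elegans strain RW12194, whose arid-1 gene on chromosome V carries the CRISPR insertion st12194[arid-1::TY1::EGFP::3xFLAG]. Whole L4 larvae were taken at 47 hours, after hatchlings from bleached adults had been starved at L1, and sonicated chromatin was precipitated with an antibody against GFP. There is 1 group with 2 samples, numbered as biological replicates and drawn from separate biosamples of the 1 strain. A site therefore averages over all tissues of the worm, the number of reads is unknown, and a control library was not used here.

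ARID-1 is named for its AT-rich interaction domain, a DNA-binding fold, and is a worm relative of mammalian ARID4A and ARID4B, which are subunits of the SIN3 histone deacetylase complex. That complex removes acetyl groups from histones and is found at promoters of active as well as silent genes. It acts without sequence specificity of its own and is brought to DNA by its partners.

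Windows around 8 summits are printed to show the kinds of site that the conservative list does not hold. They were read from the WBcel235 assembly (the ce11 build), plus strand, within 100 bp of the summit and stopped before any annotated UTR, and capitals mark matches to any of 12 short motifs searched on both strands. All are from chromosomes II to V. The first 3 are the promoter sites with the highest mean signal there whose windows kept at least 100 bases. The alkb-7 window lies at a relative of the AlkB dioxygenases and holds the GATA factor letters TGATAA on the minus strand. The C55A6.1 and C55A6.10 window holds the GC box CCGCCC on the minus strand, and the dnc-1 and lsm-7 window, between a dynactin subunit gene and an Lsm-ring gene, holds TTCCGG and AATATT.
alkb-7, chrII:12787968-12788140: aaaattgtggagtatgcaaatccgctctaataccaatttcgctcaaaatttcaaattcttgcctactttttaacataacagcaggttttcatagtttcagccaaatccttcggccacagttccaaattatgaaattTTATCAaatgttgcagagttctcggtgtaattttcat
C55A6.1 and C55A6.10, chrV:11505089-11505289: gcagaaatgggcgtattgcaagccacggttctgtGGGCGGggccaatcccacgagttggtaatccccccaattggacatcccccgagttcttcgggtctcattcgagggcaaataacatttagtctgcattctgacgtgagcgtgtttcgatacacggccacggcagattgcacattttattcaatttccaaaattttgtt
dnc-1 and lsm-7, chrIV:10933204-10933384: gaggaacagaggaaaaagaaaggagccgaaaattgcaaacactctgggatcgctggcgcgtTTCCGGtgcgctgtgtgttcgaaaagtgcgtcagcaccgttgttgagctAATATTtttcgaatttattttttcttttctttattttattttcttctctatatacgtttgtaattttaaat

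The next 3 windows are the tRNA gene sites of highest mean signal on chromosomes II to V, shown because tRNA genes were, of the tRNA, snoRNA, snRNA, miRNA and rRNA classes, most often under conservative peaks. C16D9.t4 encodes tRNA-Tyr and shows the B box letters GGTTCGA, an internal promoter element that RNA polymerase III factors read, besides TATAAA and TTCCGG on the minus strand. The windows of rtw-6, a tRNA-Trp gene, and R09E10.t1, a tRNA-Gln gene, hold no exact B box. In R09E10.t1 the capitals join a run of T and the splice acceptor letters TTTTCAG, which overlap on the minus strand.
C16D9.t4, chrV:8247412-8247612: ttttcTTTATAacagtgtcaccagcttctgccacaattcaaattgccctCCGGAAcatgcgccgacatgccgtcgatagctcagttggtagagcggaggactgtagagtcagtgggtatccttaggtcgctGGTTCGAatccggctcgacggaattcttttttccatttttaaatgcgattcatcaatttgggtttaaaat
rtw-6, chrIV:7344088-7344288: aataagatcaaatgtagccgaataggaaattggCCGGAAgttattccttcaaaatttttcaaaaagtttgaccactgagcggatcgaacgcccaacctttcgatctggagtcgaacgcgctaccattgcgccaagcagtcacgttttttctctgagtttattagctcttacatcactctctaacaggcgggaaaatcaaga
R09E10.t1, chrIV:10311188-10311388: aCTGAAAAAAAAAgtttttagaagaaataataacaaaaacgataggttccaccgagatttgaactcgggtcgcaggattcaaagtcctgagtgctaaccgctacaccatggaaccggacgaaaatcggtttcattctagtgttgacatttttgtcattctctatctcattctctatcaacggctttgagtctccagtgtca

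The last 2 windows are the SL2 spliced leader gene sls-2.12, where none of the 12 motifs was found, and the site between genes of highest mean signal on chromosomes II to V, which holds TATAAA. SL2 RNA donates the leader exon that is spliced onto downstream genes of worm operons.
sls-2.12, chrIV:5261860-5262060: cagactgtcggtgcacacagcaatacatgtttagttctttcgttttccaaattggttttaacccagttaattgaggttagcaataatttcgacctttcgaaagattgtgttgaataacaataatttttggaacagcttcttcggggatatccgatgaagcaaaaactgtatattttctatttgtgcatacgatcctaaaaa
Intergenic, chrIII:2494785-2494985: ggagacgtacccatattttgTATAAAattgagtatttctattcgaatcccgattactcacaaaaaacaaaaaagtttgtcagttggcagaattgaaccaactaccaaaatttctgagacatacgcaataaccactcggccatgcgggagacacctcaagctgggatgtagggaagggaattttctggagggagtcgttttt

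Every near-threshold peak was 270 bp wide. The series-level signal, the authors' own value per peak with no stated scale, had a median of 47.4 over these sites, with the middle 50% between 42.4 and 52.4 and a range of 2.11 to 78.8. The conservative peaks had a median of 74.8. In replicate 1's own ranked list 1337 of the sites had an overlapping peak, and in replicate 2's list 1342 had one. Both lists held a peak at 1270 sites and neither at 4. The signal there was 17.7 at the lowest, 22.8 at the median and 53.4 at the highest in replicate 1, and 18.7, 24.7 and 59.2 in replicate 2. Conservative peaks had medians of 37.5 and 40.3. The scale between the lists is unknown, so a difference between the replicates' medians may be one of scale.

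All of these values were selected on, so they are given as a description. As the plot of replicate signals shows, the sites ran from those with like, modest signal in both replicates to those high in 1 and low in the other. The lower value of each pair lay in a narrow range, 17.7 to 26.4, while the higher ran from 21.7 to 59.2. At 998 of the 1270 sites (78.6%) the 2 values were within 1.5-fold, and at 49 (3.86%) they differed by more than 2-fold. The conservative peaks gave 81.9% and 2.20%. The Pearson correlation of log2 signal between the replicates was −0.57 and Spearman's rho −0.68 over these 1270 sites, which share libraries and a window that itself bends the relation, against 0.75 and 0.59 over 1912 conservative peaks.

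**Figure D1:**
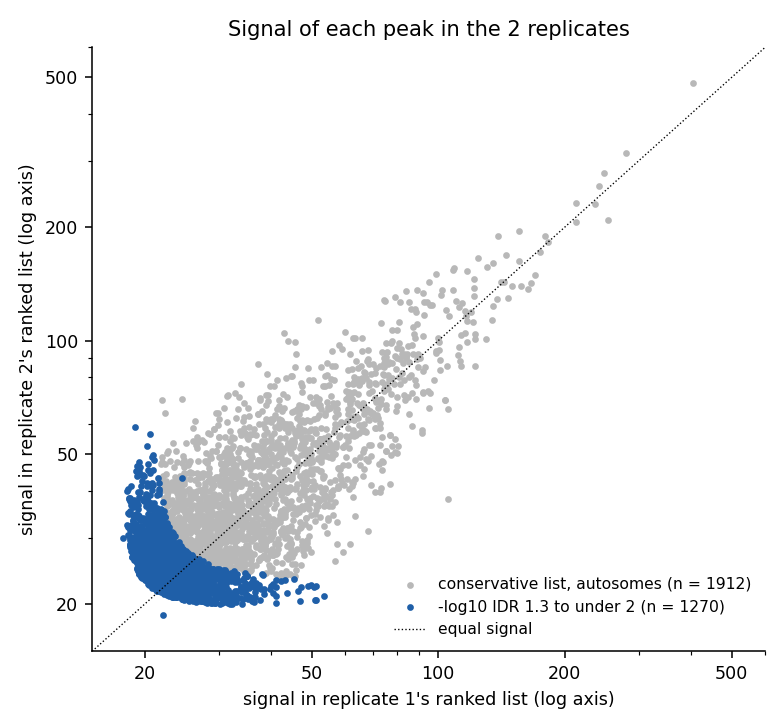
Signal of each peak in the ranked list of replicate 1 (horizontal) and replicate 2 (vertical), both on log axes, for 1270 near-threshold peaks (blue) and 1912 conservative peaks (grey) with a value in both. The blue points form a bent strip along the lower left edge of the grey cloud, with 1 arm at high replicate 2 and 1 at high replicate 1 signal.

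The records nearest to the bounds were these. The nearest record under the lower bound had a −log10 IDR of 1.2999, lay in an intron and had a replicate 1 signal of 18.9, and the nearest inside had 1.3008, also in an intron, with 19.7 and 23.5 in replicates 1 and 2. At the upper bound the last record inside had 1.9998 and lay in an intron, with 41.2 in replicate 1 and no overlapping peak in replicate 2. The first record beyond had 2.0004 and lay at the 5' end of F25G6.8, with 23.3 and 31.2.

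Few of the sites pass when a replicate is judged alone. The thresholded list of replicate 1 overlapped 33 of them (2.34%, exact 95% binomial interval 1.61 to 3.26%) and that of replicate 2 overlapped 39 (2.76%, 1.97 to 3.75%), against 45.5% and 45.8% of conservative peaks. Such intervals cover counting error only. Neither list overlapped 1344 sites (95.1%) and both overlapped 3, at C55A6.1 and C55A6.10, at mdt-17, a Mediator subunit gene, and at kel-3, whose 5' end also has a conservative summit. Where 1 list alone held the site and both signals were known, that replicate had the higher signal at 24 of 27 sites for replicate 1 and 33 of 34 for replicate 2. This largely follows from the selection, in which the lower value of each pair lay within 17.7 to 26.4. The other series-level thresholded list overlapped 145 sites (10.3%).

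Some sites are second calls at the same place. Of the 1413, 129 overlapped another near-threshold peak, and merging these to the one of highest signal left 1349. In 43 pairs of sites, 86 in all, both matched the same peaks in the replicates' lists. A series-level signal under 20 was found at 65 sites, of which 60 overlapped another ranked peak, against 230 (16.3%) of all sites. Only 7 overlapped a conservative peak and 116 (8.21%) lay within 500 bp of one.

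The near-threshold peaks still favoured promoters, but less than the conservative peaks did. Summits were sorted into 7 classes in fixed order, beginning with the promoter, which takes in 500 bp to each side of where a protein-coding gene is annotated to begin. Promoters held 452 of 1413 summits (31.99%, 29.6 to 34.5%), against 43.6% (41.4 to 45.9%) of conservative summits and 19.6% of autosomal bases. With a window of 250 bp the shares were 19.6%, 29.4% and 10.2%, and with the 5' end of every annotated transcript 38.0%, 48.2% and 24.1%. The order of the 3 was the same under each definition.

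Coding exons made the largest difference. They held 275 near-threshold summits (19.5%, 17.4 to 21.6%) and 106 conservative summits (5.44%, 4.47 to 6.54%), beside 19.7% of autosomal bases. Going up the ranked list, coding exons took 27.7% of summits at a −log10 IDR of 0.2 to 0.5, 24.2% just under the lower bound, 20.3% and 18.2% in the lower and upper parts of the near-threshold band, and 7.81% (6.24 to 9.63%) at 2 to 3. The step at the threshold was thus wider than the steps below it, though the bands differ in width, as the plot of location by reproducibility shows, while promoters went from 33.04% (29.2 to 37.1%) to 41.9% (38.9 to 44.99%). Above 2 only records of the conservative list were counted.

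**Figure D2:**
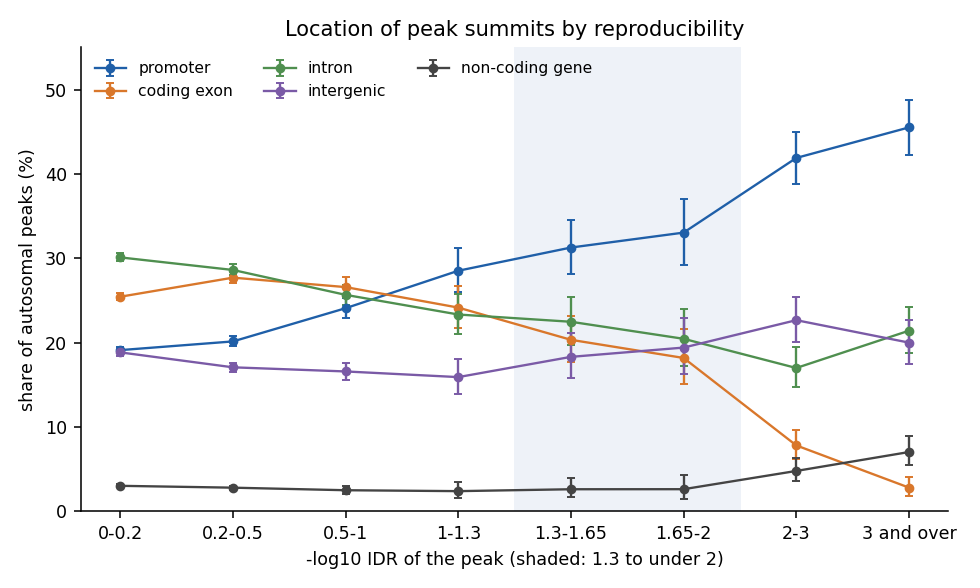
Share of autosomal peak summits (vertical, %) in 5 location classes by −log10 IDR (horizontal). Bars are exact 95% binomial intervals, the shaded bands are the near-threshold peaks, and the 2 bands to their right hold conservative peaks only. Promoters climb from 19.1% to 45.5% from the lowest to the highest band, and coding exons reach 2.81% at the highest.

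The other classes differed less between the lists, in percentage points. Introns held 306 near-threshold summits (21.7%) against 29.4% of bases, and the space between genes held 265 (18.8%) against 24.2%. Their 3' UTR share was 5.03% (3.95 to 6.30%), beside 3.64% (2.86 to 4.57%) of conservative summits and 2.60% of bases. Non-coding genes outside all other classes held 37 summits (2.62%, 1.85 to 3.59%), beside 5.85% (4.85 to 6.99%) of conservative summits. Summits between genes lay a median of 1963 bp from the nearest protein-coding 5' end, and 24.2% of them were within 1000 bp. The median series-level signal was alike in all 7 classes, from 46.5 in introns to 48.8 between genes. The selection itself holds the signal to a narrow range, so this is no result about the classes. Among conservative peaks the medians ran from 62.3 in coding exons to 83.3 in non-coding genes.

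Within promoters the near-threshold summits sat differently. Upstream of the nearest 5' end lay 53.5% of them (48.8 to 58.2%), against 76.2% (73.2 to 79.1%) of the 850 conservative promoter summits and 43.2% of 12430 promoter summits ranked under 1.3. The median position was 27 bp upstream, against 140 bp upstream in the conservative list and 60.5 bp downstream in the lower ranks. A shared promoter, with the 5' ends of 2 or more genes within 500 bp, was found at 13.9% (10.9 to 17.5%), against 25.4% (22.5 to 28.5%) of conservative promoter summits. Because trans-splicing removes the first part of many worm transcripts, the start of transcription can lie upstream of the annotated one.

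**Figure D3:**
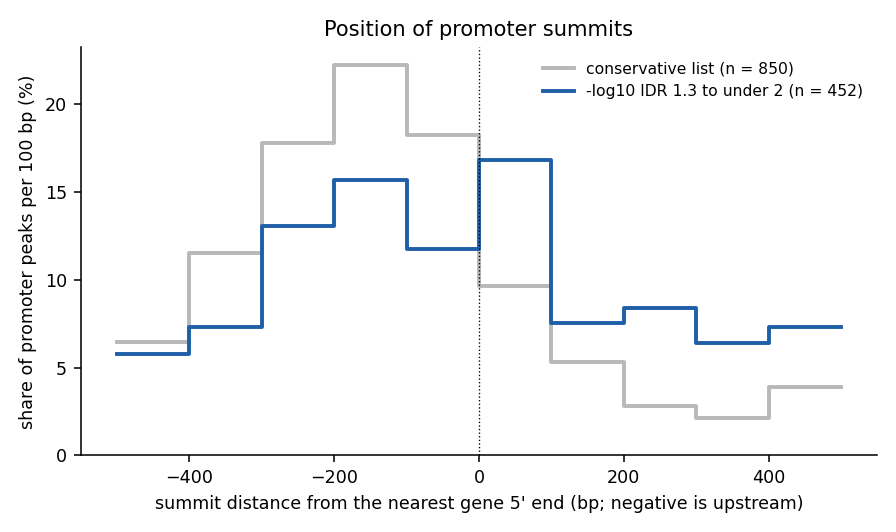
Distance of promoter summits from the nearest protein-coding 5' end (horizontal, bp, negative upstream) as the share of promoter peaks per 100 bp (vertical, %). The 850 conservative summits (grey) are most frequent in the second 100 bp upstream, and the 452 near-threshold summits (blue) spread on both sides of the 5' end.

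Most promoters reached by near-threshold peaks had no conservative summit, as most genes have none. A conservative summit lay at the 5' end of 1033 of 17242 autosomal protein-coding genes (5.99%). The near-threshold peaks reached 491 genes, of which 31 already had a conservative summit and 460 did not, which is 2.84% of the 16209 autosomal genes without one. The 31 are 3% of the 1033 genes with one, so the shares were alike. With windows of 250 bp the number was 297. Of the 460 genes, 400 had no summit of any other thresholded list at the 5' end, 53 had one in the other series-level list, and 13 and 15 had one in the lists of replicates 1 and 2. For 77 a conservative summit lay within 2000 bp. At 421 of the 452 promoter sites all genes were missed by the conservative list. At the 375 of these with both values the signal ran from 17.7 to 53.4 in replicate 1 (median 23.01) and from 20.01 to 56.5 in replicate 2 (median 24.6), and at 284 the 2 values were within 1.5-fold.

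The missed promoters with the highest mean signal were those in which 1 replicate was far above the other. The selection and the ranking bring this about. The lower value of each pair lay within 17.7 to 26.4 in this band, so a high mean needs 1 high replicate. Ranking by the mean of both replicates gave 20 sites with means of 31.2 to 38.5, in which the higher value was 1.78 to 2.75 times the lower. Replicate 2 was the higher at 12 and replicate 1 at 8, 14 overlapped the list of at least 1 replicate, and 11 lay upstream of the nearest 5' end. F44E7.5, which RefSeq describes as an F-box domain protein gene, was first, with its summit 14 bp downstream of the 5' end (chromosome V, 5780773 to 5781042) and signals of 20.6 in replicate 1 and 56.5 in replicate 2 (mean 38.5 ± 25.4, SD, n = 2). At alkb-7, whose window is printed above, the signals were 53.4 and 21.02 (37.2 ± 22.9, n = 2), and at C55A6.1 and C55A6.10 they were 51.3 and 22.3. The order of the replicates was thus opposite at the first and the next 2 sites. The shared promoter of dnc-1 and lsm-7 had 50.6 and 22.3, and F11G11.5 had 50.9 and 20.6.

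Among genes with better known roles, wdr-23 (chromosome I, 7595554 to 7595823), the substrate receptor of the ubiquitin ligase that limits the stress factor SKN-1, had 20.9 in replicate 1 and 49.8 in replicate 2. The promoter of xbp-1 (chromosome III, 4193702 to 4193971), the bZIP factor of the unfolded protein response, had the highest series-level signal of all the sites, 78.8, with 45.5 and 23.3 in the replicates and a −log10 IDR of 1.96. The Mediator subunit gene mdt-17 had 20.3 and 45.3. A site 362 bp upstream of crh-1, the worm CREB gene, had 20.9 and 41.5. The promoter shared by txdc-9 and the mitochondrial ribosomal gene mrps-17 had 21.6 and 43.3, at a −log10 IDR of 1.99. In each of these 5 the replicates differed by close to 2-fold or more. The others of the 20 were M01E5.3, Y57E12AL.1 with Y57E12AL.6, Y48G8AR.8, ztf-8, Y50D4A.5, Y45G5AM.9, F01F1.14, F21D5.7, dhhc-3 and Y73F8A.26.

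Gene families were read from 33 lists of gene symbols, 4645 genes in all, and each family's count is set beside the 2.84% of all autosomal genes without a conservative summit. The lists were chosen with earlier results known, and the intervals below are wide. In all, 326 listed genes had a conservative summit and 120 of the 460 added genes were listed, or 76 with windows of 250 bp. The lists hold 4645 of the 17242 autosomal protein-coding genes, so added genes were listed about as often as all genes. The other 340 added genes were in no list. The counts of different lists are not independent, since the same summit can count in each. This holds for rps-6 with usp-3, pas-7 with puf-12, uba-2 with vps-25 and rad-54.L with snx-3, among others. Some genes also stand in different lists at once, such as ucr-1, cpr-9 and asp-5.

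Most genes of the ribosome already had a conservative summit. Of the 33 small-subunit protein genes 24 had a conservative summit and 3 of the other 9 had a near-threshold one (33.3%, 7.49 to 70.1%). These were rps-16, with its summit 63 bp upstream and signals of 20.2 in replicate 1 and 36.5 in replicate 2, rps-6 with 28.7 and 23.4, and rps-5 with 19.04 and 26.5. Of the 48 large-subunit genes 29 had a conservative summit and 3 of the other 19 were added (15.8%, 3.38 to 39.6%). They were rpl-36.A with 29.7 and 23.5, rpl-13 with 18.9 and 32.8, and rpl-28 with 23.8 and 27.7. The rpl-36.A summit lay at a promoter shared with nuo-1, a respiratory complex I gene. With both sets of peaks 81.8% of small-subunit and 66.7% of large-subunit genes were reached.

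The mitochondrial ribosome went from 7 to 15 genes reached. Of its 70 genes 7 had a conservative summit, and 8 of the other 63 were added (12.7%, 5.65 to 23.5%): mrps-17, mrps-15, mrpl-48, mrps-2, mrps-18A, mrpl-35, mrpl-18 and mrps-16. At mrps-2, with the summit 116 bp upstream, the replicates gave 25.5 and 26.5 (mean 26.03 ± 0.705, SD, n = 2), so that site was even between them, unlike mrps-17. At mrps-15 they gave 30.7 and 23.9, and that summit was shared with asg-1, an ATP synthase gene. Respiratory chain genes had 13 of 65 in the conservative list and 6 of the other 52 added (11.5%, 4.35 to 23.4%), namely nduf-9, asg-1, nuo-1, ucr-1, asb-1 and ndua-1.

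Protein turnover and translation showed the same kind of addition. The proteasome, which degrades ubiquitin-tagged proteins, had 8 of 33 genes with a conservative summit and 5 of the other 25 added (20%, 6.83 to 40.7%). The core particle genes pas-7 and pbs-2 had signals of 23.7 and 26.3, and 19.8 and 28.99. The regulatory particle gene rpn-2 had 22.6 and 26.5, and rpn-5 and rpn-13 were the others. Translation factors had 11 of 44 and 5 of the other 33 added (15.2%, 5.11 to 31.9%): eif-3.I, ife-1, eif-2Bbeta, pab-1 and egl-45. The eif-3.I summit lay 203 bp upstream with 26.6 and 23.6. That of eif-2Bbeta lay 212 bp upstream, with the 5' end of Y47H9C.8 nearer, at 8 bp. Those of ife-1 and pab-1 lay 489 and 495 bp downstream of the 5' end, within the genes and near the edge of the window. The egl-45 summit lay 490 bp upstream, with kcmf-1 nearer, at 295 bp. Ubiquitin conjugation genes had 5 of 53 added (9.43%), among them the E1 enzyme gene uba-1, where the replicates gave 23.6 and 23.7. Aminoacyl-tRNA synthetases had 2 of 28 (7.14%), vars-1 and cars-1.

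In signalling, 1 of 30 insulin, TOR and stress genes had a conservative summit within 500 bp of the 5' end, rheb-1. Of the other 29, 4 were added (13.8%, 3.89 to 31.7%). Conservative peaks elsewhere in or near a gene, 1 each at daf-16 and atf-7, were not counted. Besides xbp-1 these were sir-2.1, a sirtuin deacetylase, with its summit 8 bp upstream and signals of 30.1 and 24.6, kgb-1, a JNK-like kinase, with 23.1 and 22.8, and atf-7, a bZIP factor of the innate immune p38 pathway, with 21.8 and 22.2. The replicates were close at the last 2 and differed by close to 2-fold at xbp-1.

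Membrane traffic had 10 genes added (9.62% of those without a conservative summit, 4.71 to 16.97%), led by the ESCRT ATPase gene vps-4 with 29.1 and 23.4 and by arf-5 with 26.99 and 25.2. Cell cycle and replication had 10 of 102 (9.80%, 4.80 to 17.3%), among them plk-3 with 18.1 and 39.9, the DNA polymerase epsilon subunit gene pole-2 with 33.4 and 22.98, and the origin recognition genes orc-4 and orc-5. Core metabolism had 6 of 61 (9.84%), gpd-1, gdh-1, pdha-1, metr-1, mel-32 and mdh-2. Chromatin regulators had 6 of 84 (7.14%), with spr-2 at 20.1 and 32.9 and the CBP acetyltransferase gene cbp-1 at 22.8 and 23.4, besides dpl-1, lin-56, lin-52 and xnp-1. Of these, dpl-1 and lin-52 encode subunits of the DREAM complex. Splicing had 4 of 50, RNA polymerases and general transcription 5 of 77, and germline and small RNA genes 6 of 106. In the last 3 lists the shares were 8%, 6.49% and 5.66%.

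Some lists lay under the background share. None of 249 neuronal genes without a conservative summit was added (interval up to 1.47%), nor any of 422 genes with an F-box family symbol (up to 0.870%), a list that does not hold F44E7.5. Chemoreceptors, the largest list, had 4 of 1326 (0.302%, 0.0823 to 0.771%), of which srlf-1 was matched by its symbol and is described otherwise by RefSeq. Immune and detoxification genes had 3 of 513 (0.585%, 0.121 to 1.70%). Other low counts have intervals that take in the background, with none of 67 histone genes (up to 5.36%), 64 homeobox genes (up to 5.601%) or 4 SIN-3 complex genes (up to 60.2%), 3 of 243 nuclear receptors (1.23%, 0.255 to 3.57%) and 3 of 184 collagens (1.63%, 0.338 to 4.69%). The 3 collagen summits, at col-122, col-142 and col-125, lay 446, 456 and 437 bp downstream of the 5' end, that is, within these short genes. Of 24 ribosome biogenesis genes 1 was added (4.17%, 0.105 to 21.1%), which was wdr-23, matched by its symbol and better known for ubiquitin ligation. In the sperm list msp-3 and ssq-1 lay downstream of the 5' end, and mspn-1 was matched by its symbol alone.

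The lists not named so far lay between these. Chaperones had 4 of 50 added (8%), lysosome and autophagy genes 4 of 54 (7.41%), nuclear pore and transport genes 2 of 31 (6.45%) and mitochondrial import 2 of 21 (9.52%). Intestinal genes had 4 of 77 (5.19%), muscle genes 2 of 41 (4.88%) and sperm genes 3 of 97 (3.09%).

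**Figure D4:**
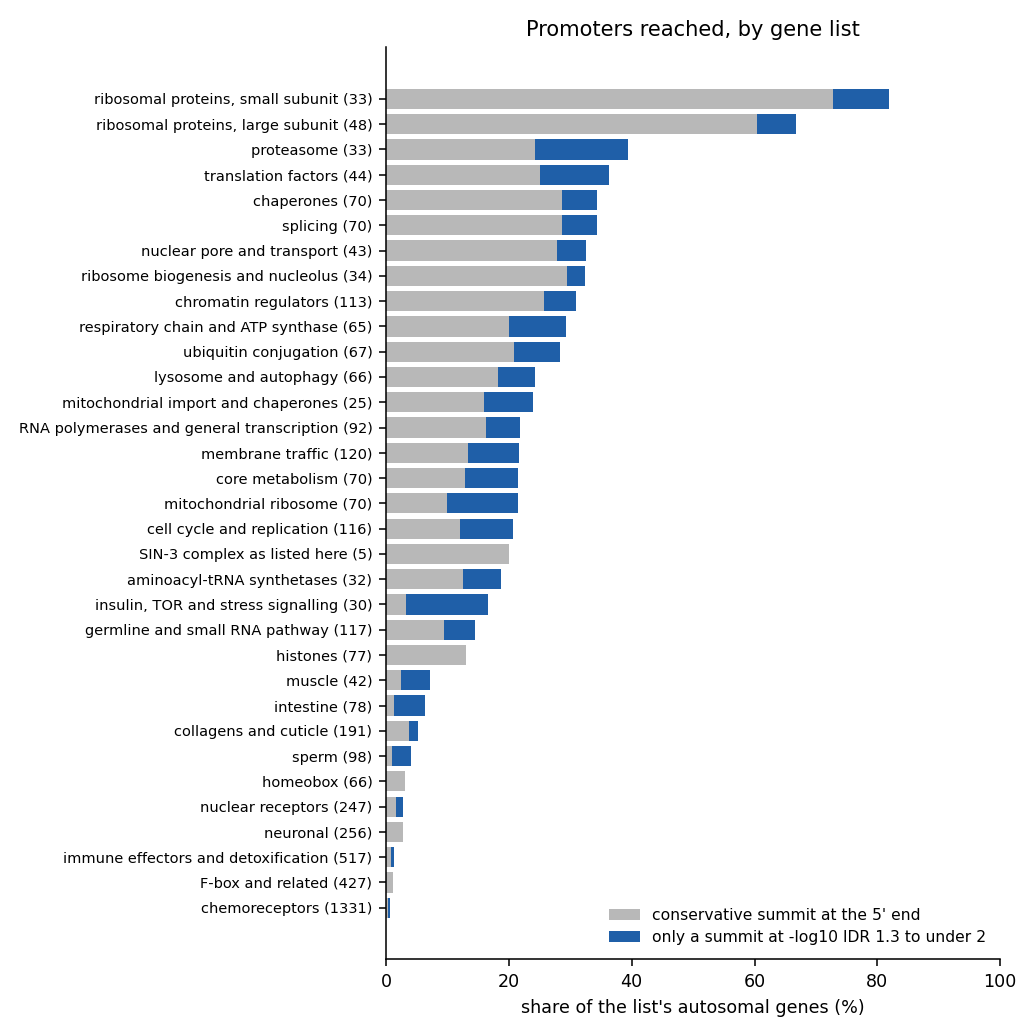
Share of the autosomal genes of each of 33 lists (vertical, with the number of genes in brackets) that had a conservative summit within 500 bp of the 5' end (grey) and, in addition, those with only a near-threshold summit (blue). Ribosomal proteins are highest in grey, and the blue part is wider than the grey one for the mitochondrial ribosome and for insulin, TOR and stress signalling among the lists that reach over 10%.

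Genes of tRNAs, snoRNAs and snRNAs were under a smaller share of near-threshold peaks than of conservative peaks. Peaks overlapped a tRNA gene at 15 of 1413 near-threshold sites (1.06%, 0.595 to 1.75%) and at 196 conservative sites (10.1%, 8.76 to 11.5%). For snoRNA genes the counts were 9 (0.637%, 0.292 to 1.21%) and 77 (3.95%, 3.13 to 4.91%), and for snRNA genes 9 (0.637%) and 35 (1.80%, 1.25 to 2.49%). Genes of miRNAs were overlapped by 3 (0.212%) and 4 peaks (0.205%), which are like shares, and rRNA genes by none in either. The wide class of other non-coding RNA genes was overlapped by 84 (5.94%) and 319 (16.4%), piRNA genes by 3 (0.212%, 0.0438 to 0.619%) and 9 (0.462%, 0.211 to 0.875%), and pseudogenes by 19 (1.34%) and 25 (1.28%). In terms of genes, 207 of 336 autosomal tRNA genes (61.6%) were under conservative peaks. Another 15 (4.46% of all 336) were under near-threshold peaks and 114 under neither. That share is of all tRNA genes, whereas the gene families above were counted among genes without a conservative summit. Not one of the tRNA, snoRNA, snRNA or miRNA genes reached here was also under a conservative peak. Only 7 of all 1413 near-threshold peaks overlapped a conservative peak, so this is not read as particular to these classes.

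The tRNA sites ranged in signal from 19.02 to 46.5 in replicate 1 (median 23.2) and from 20.1 to 39.1 in replicate 2 (median 25.4), while the conservative tRNA sites had medians of 45.7 and 50.6. Replicate 2 was the higher at 9 and replicate 1 at 6. The highest were C16D9.t4 for tRNA-Tyr with 46.5 and 21.6, rtw-6 for tRNA-Trp with 41.1 and 20.1, F15H9.t1 for tRNA-Met with 21.7 and 39.1, R09E10.t1 for tRNA-Gln with 19.02 and 37.1, and Y39G10AL.t1 for tRNA-Gly with 31.6 and 23.4. At the first 4 the replicates differed widely, and at Y51H7BR.t1, a tRNA-Ser gene outside the highest 5 and picked after its values were seen, they gave 23.4 and 24.8. By isotype, tRNA-Met had 3 of 12 genes reached here against 5 by conservative peaks, and Gln, Leu and Ser had 2 each. The 15 genes held no tRNA-Ala, tRNA-Glu, tRNA-Lys or tRNA-Asp gene. Of those isotypes the conservative peaks covered 15 of 21, 16 of 18, 21 of 28 and 13 of 15. The 15 genes also held none for His, Asn, Ile, Thr or Phe, where conservative peaks covered 4 of 11, 7 of 14, 9 of 16, 12 of 20 and 5 of 8. Nor did they hold any for Cys or Sec, where 6 of 6 and 1 of 1 were covered.

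The summit lay within the tRNA gene at 8 of the 15 sites, and 9 of the 15 summits lay in an intron of a protein-coding gene. All 3 tRNA genes of the C16D9 clone, C16D9.t2, C16D9.t3 and C16D9.t4, were near-threshold sites and none was under a conservative peak. The B box letters were found in 8 of the 15 tRNA genes (53.3%, 26.6 to 78.7%), against 66.2% of those under conservative peaks and 64.04% of those under neither. All 15 have at least 1 identical copy elsewhere in the genome (interval 78.2 to 100%), as do 74.4% of all autosomal tRNA genes and 80.7% of those under conservative peaks. For all 15, an identical copy was itself under a peak of the conservative list. No such count is given here for the other tRNA genes. Since 61.6% of all autosomal tRNA genes were under conservative peaks, it is not read as particular to these 15. The sources used here do not say how reads from identical copies were shared out, and the assignment of signal to any 1 copy is uncertain.

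Among snRNA genes, 2 of the 19 autosomal SL2 genes were near-threshold sites and 13 were under conservative peaks. At sls-2.14 (chromosome III, 11090390 to 11090659) replicate 2 had a signal of 52.6 and its own list held the site, while replicate 1 had no overlapping peak. At sls-2.12, printed above, the signals were 18.5 and 38.2. T27E4.11 had 40.5 and 22.6, with the summit 49 bp outside the gene. R05D7.6, F56H6.14 and F56H6.16 are identical in sequence to 6 other copies each, and their sites had even signals, such as 24.8 and 24.6 at F56H6.14. F07C6.5 had a peak in replicate 1 alone, with 36.5.

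At the snoRNA sites, whose RNAs guide the modification of rRNA, the summit was within the snoRNA gene at 3 of 9. F54E7.10 had 43.6 and 21.4, with the summit 98 bp outside the snoRNA and within the ribosomal protein gene rps-12. F56C9.12 had 35.95 and 22.9 and F58D5.12 had 35.7 and 22.7, with summits 132 and 135 bp outside. Y73B6A.14 had 20.6 and 34 and C14C10.8 had 24.7 and 26.97. The miRNA sites were beside mir-61 with 23.3 and 31.03, mir-2218.1 with 21.5 and 32.7 and mir-4929 with 19.95 and 24.3, with summits 91, 108 and 31 bp from the hairpin gene. None of these 3 summits lay within it.

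Coding exons were the part of the gene body where the lists differed most. The 275 coding-exon summits lay in 262 genes (1.52% of autosomal protein-coding genes), of which 71 were in the lists. The lists hold 4645 of all 17242 such genes, a like share. At 43 of the 275 summits (15.6%) the host gene had a conservative summit at its 5' end, against 5.99% of all autosomal genes. At 13 of the 275 the host gene had a near-threshold one there. The highest lay in cls-2, a CLASP microtubule gene, with 18.9 and 59.2, in lsm-3 with 47.3 and 22.2 and in ify-1, the securin gene, with 21.7 and 41.9. The gene of the protein disulfide isomerase pdi-3 held 3 coding-exon sites, the most of any gene, and 2 of these overlap each other. By list, the most genes with such a site were 9 of 191 collagen and cuticle genes (4.71%, 2.18 to 8.76%), 7 of 70 chaperone genes (10%, 4.12 to 19.5%) and 7 of 113 chromatin regulators (6.19%, 2.53 to 12.4%). The chaperone genes were dnj-24, hsp-1, hsp-6, hsp-60, pdi-3, sti-1 and unc-23. Among introns, nova-1 with 20.3 and 52.6, Y47G6A.21 with 49.8 and 22.6 and Y45G5AM.9 with 51.3 and 20.5 were highest. In 3' UTRs the first was pde-2, a cyclic nucleotide phosphodiesterase gene, with 19.4 and 45.2. Between genes the highest, on chromosome I (9307573 to 9307842), had 49.1 and 22.3.

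A few genes gathered several sites along their length. Of 1374 genes with a merged site in the gene or within 500 bp, 24 had 3 or more. These genes were picked after the counts were seen. The largest number was in daf-16, the forkhead factor of insulin signalling, which spans 26206 bp on chromosome I and had 7 near-threshold peaks, or 5 after merging, and 1 conservative peak. The 5 lay 1806, 2589, 13567, 15237 and 23009 bp from its annotated 5' end, with signals of 19.1 and 32.6, 19.6 and 29.9, 27.6 and 21.7, 22.5 and 28.2, and 23.1 and 26.03 in replicates 1 and 2. Of the 5, 1 was within 500 bp of the start of an annotated daf-16 transcript. The conservative summit, at 19418 bp, had 49.7 and 34.5.

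**Figure D5:**
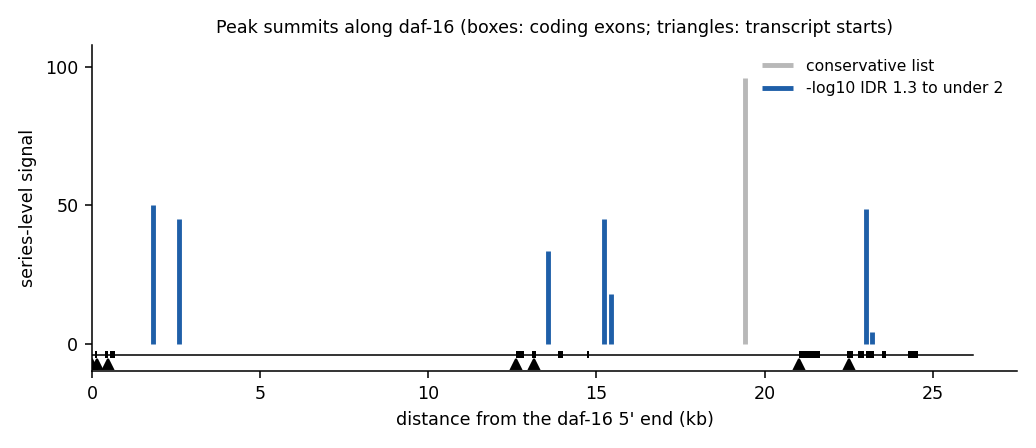
Peak summits along daf-16 by distance from its annotated 5' end (horizontal, kb) with their series-level signal (vertical), near-threshold peaks in blue and the conservative peak in grey. Black boxes are coding exons and triangles are transcript starts, and the blue summits lie in 3 groups along the gene with 2 doublets of overlapping peaks.

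The kinase gene pkg-2 had 5 sites and 1 conservative peak, and din-1, which encodes a corepressor partner of the nuclear receptor DAF-12, had 4 and none. The poly(A) polymerase gene tent-5 had 4 and 2. In mnk-1 the order was the other way, with 3 near-threshold and 9 conservative peaks. The proteasome gene rpn-2, the CLASP gene cls-2, mbk-2, pde-2, abcf-2 and R107.2 each had 3 sites and no conservative peak.

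Base composition lay between that of the conservative peaks and that of lower ranks. In windows that reach 100 bp to each side of the summit the median GC content was 41.8% at near-threshold summits, 43.8% at conservative summits, 38.8% at records under 1.3 and 35.8% at all protein-coding 5' ends. By class it was 39.8% in promoters, 44.8% in coding exons, 34.3% in 3' UTRs and 47.3% in non-coding genes. The GAGA repeat GAGAGAG occurred in 8.85% of near-threshold windows (7.42 to 10.4%), 14.6% of conservative ones and 3.81% of windows at 5' ends. The B box occurred in 2.27%, 9.70% and 1.11%, and the GC box CCGCCC in 8.70%, 11.3% and 5.12%. The GATA letters were in 15.9% (13.99 to 17.9%), close to the 15.7% of records under 1.3 and above the 11.95% (10.5 to 13.5%) of conservative windows, and 5' ends at large held 20.9%. The acceptor letters TTTTCAG were in 15.1% (13.3 to 17.1%), against 11.2% (9.87 to 12.7%) of conservative windows, 19.7% of records under 1.3 and 25.2% of 5' ends. Runs of 7 T were alike, at 25.7% and 25.4%, and TATAAA too, at 14.01% and 13.1%. A match is a description of the letters and not a bound site.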

How the data were processed

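Both biological replicates of the 1 group were measured by ChIP-seq. The deposited lists are peak records on the ce11 build, per the labels, with aligner, caller and versions not given in the sources used here. Signal per peak is the authors' own value, deposited without a stated scale. The −log10 of the IDR was deposited in the ranked lists by the authors, and records were selected on it. The members, the gene lists and the motifs were chosen with earlier results of these data known.

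A peak of a replicate's ranked list was matched to a site by 1 bp of overlap, nearest summit first. Summits were placed on Ensembl release 115 gene models of WBcel235, with names of non-coding genes and genes without a name from RefSeq's annotation of the same assembly. Genes and sites named in the text were the 20 missed promoters, 5 per small RNA class, 5 per gene list and 3 per other class of highest mean signal, and sites with 1 replicate value or chosen otherwise are said to be so. Further added members of a list are named without values. No significance test was run, because the design has 1 group and the members were chosen by the readout. Shares carry exact (Clopper-Pearson) 95% binomial intervals. The overlap and class functions were tested on simulated peaks. Python 3.11.15, numpy 2.4.6, pandas 2.3.3, scipy 1.17.1 and matplotlib 3.10.9 were used. Depth per sample is unknown.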

Additional observations from a re-analysis of the deposited data

How the results depend on the processing

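Of 625 alternative values, 503 stayed within the 95% interval of a share, 1.5 times a count, the interquartile range of GC or the replicates' SD of a median, and 122 moved. None reversed, but shares, counts and medians have no sign to reverse, so this says nothing about robustness. A lower bound of 1.5 gave 890 sites, 300 added genes, 77 listed genes, 5 snRNA sites and 830 sites in neither replicate's list. A lower bound of 1.0 gave 2626, 781, 207 and 24 snoRNA sites, 21.6% in coding exons and 2524 in neither list. Promoter windows of 250 bp gave 19.6% promoter, 22.1% coding exon, 25.1% intron and 23.8% intergenic summits, 297 added and 76 listed genes. The other series-level ranked list gave 1.19% 5' UTR and 16.99% coding exon summits, 5 snRNA sites, 1 site in both replicates' lists and 3 in the other thresholded list. Non-coding genes placed before promoters took 5.10%. Requiring the summit within the gene left 8 tRNA, 3 snoRNA and 4 snRNA sites. Added after seeing the data, the 5' ends of all transcripts gave 38.0% promoter, 17.1% coding exon and 18.5% intron summits, and merging overlapping sites moved none of the main values. Beyond these settings' own construction, the cause was not tested. Leaving out sites within 500 bp of a conservative peak, or sites without a peak in replicate 1 or in replicate 2, moved none of the main values either. No paired analysis was possible because there is 1 group. The unknown depth limits what an absent peak in 1 replicate means.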

Other observations

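The near-threshold peaks were spread over the autosomes much like the conservative peaks. Per Mb chromosome III had the most, 23.8 against 34.7 conservative peaks, and chromosome V the fewest, 11.5 against 15.2. The middle 50% of each chromosome, where broadly expressed worm genes are denser, held 59.4% of near-threshold summits (exact 95% binomial interval 56.8 to 62.0%) and 59.4% of conservative summits (57.1 to 61.6%). It held 55.7% of protein-coding 5' ends and 49.4% of records under 1.3. Chromosome IV differed between the sets, with 179 of 283 near-threshold and 195 of 370 conservative summits in its middle part, and this difference was not tested.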
